A study of Oryza sativa with 8 samples.

Results

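The genes described here are the core components of the rice circadian clock, followed across roots and leaves of plants that overexpress OsbZIP83 and of the non-transformant. They were chosen by name, with earlier results of these data known. Of 10 symbols searched, 9 matched a gene. Because the symbol LHY is carried by 2 loci, the set holds 10 of the 46120 genes in the table. The symbol OsLUX matched no gene. All 10 genes passed the filter on low values, a mean of at least 1 read per 1000000 (RPM) over the 8 libraries. They lie on 9 of the rice chromosomes, and only OsPRR59 and OsFKF1 share one.

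Transcripts were profiled by Lasy-Seq, which reads the 3′ ends of polyadenylated RNA, in the cultivar Tsukinohikari grown hydroponically with sufficient iron. Each tissue was sampled once from the non-transformant (NT) and once from each of lines 13, 15 and 19, which overexpress OsbZIP83, a bZIP transcription factor gene. The NT plants are untransformed rather than transformed with an empty vector, and the promoter that drives the transgene, the age of the plants and the number of plants per sample are not given in the labels. The hour of harvest is not given either, and clock transcripts are known to change over the day. In bulk RNA, fewer cells of a type and less RNA per cell cannot be told apart.

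The plant clock is a loop of transcription factors that repress each other in turn. In Arabidopsis, the morning MYB factors LHY and CCA1 repress evening genes such as TOC1, the pseudo-response regulators (PRRs) repress LHY and CCA1 in succession through the day, and an evening complex of ELF3, ELF4 and LUX represses morning and daytime genes at night. GI and the blue-light receptor FKF1 connect the loop to flowering, and in rice several clock genes are known as heading-date loci.

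The libraries held an estimated 16951700 to 35706600 gene reads. OsbZIP83 was at 32.0003 RPM in NT roots against 154, 186 and 188 RPM in roots of lines 13, 15 and 19, and at 1.62 RPM in NT leaves against 75.3, 100.5 and 94.98 RPM in leaves of the lines. It was higher in every line library than in its NT library. Leaf markers, 10 genes mostly of photosynthesis, summed to 56.5 to 303 RPM in roots and 75963 to 97664 RPM in leaves. Of these, 7 were listed at 0 in all roots, and 9 were higher in leaves without overlap. The other, PPDK, averaged 87.3 RPM in roots and 111 RPM in leaves, and its libraries overlapped. Root markers, 13 loci matched to 10 symbols, summed to 7382 to 9705 RPM in roots and 0.556 to 5.52 RPM in leaves, and 7 were listed at 0 in all leaves. Of the 13 loci, 12 were higher in roots without overlap. The other, GS2, is a growth-regulating factor gene that carries PT2, the symbol of a phosphate transporter, as a synonym, and it averaged 0.066 RPM in roots and 0.210 RPM in leaves.

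A printed 0 has a limit of its own. Among genes of low total, 9.50% to 12.2% of values in a library were whole reads as deposited (within 0.1 read), and 46.5% to 53.7% were once each value was raised by 0.134% to 0.146% of its gene's reads summed across libraries. The rise was picked in each library as the one that gave the most whole values, so the second range is not an independent test. No source used here describes a subtraction of this kind. A 0 in 1 tissue or group for a gene abundant in another is therefore given as listed at 0 and may stand for a low level. With the estimated reads added back, the clock genes called were 2 in roots and 3 in leaves, as with the values as deposited.

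In the lines the clock set split into a few genes that changed and a majority that did not pass the test. OsFKF1 was lower and OsPRR1 higher than NT in both tissues, and LHY-like_chr.4 was higher in leaves. By limma with Benjamini-Hochberg adjustment over 21991 genes, 2 of 10 clock genes were called in roots (1 higher, 1 lower), where 1.16% of all tested genes were called, 0.655% higher and 0.509% lower. In leaves 3 of 10 were called (2 higher, 1 lower), where 3.79% of all tested genes were, 2.66% higher and 1.13% lower. All calls among the 10 genes were lost when a tissue was fitted alone. After quantile normalization the split of all calls in leaves was 379 higher to 316 lower, in place of 585 to 249, and 2 clock genes were called there (1 higher, 1 lower). The median log2 difference between lines and NT over the 10 genes was -0.11 in roots, where all tested genes had a median of 0.00, and 0.05 in leaves, where they had 0.09. Without a test, all 3 lines lay on 1 side of NT for 9 of 10 clock genes in roots, against 65.3% of all tested genes: 2 had all lines above NT (31.9% of all tested genes) and 7 below (33.4%). In leaves the number was 6 of 10, against 62.8%: 4 were above (42.2%) and 2 below (20.6%).

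**Figure D1:**
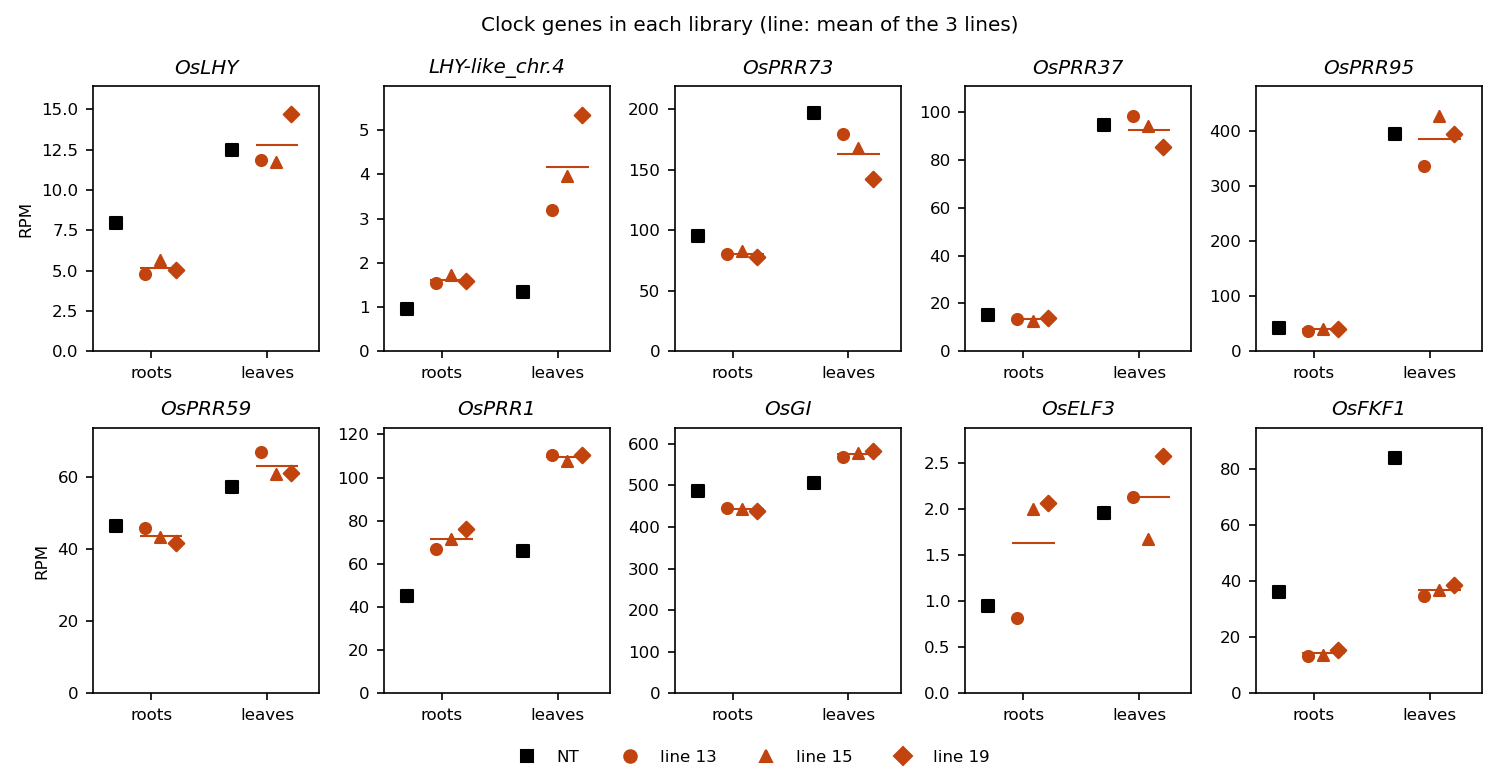
RPM of the 10 clock genes in each library (y axis, linear, starting at 0), with NT and lines 13, 15 and 19 as separate symbols in roots and leaves and a short line at the mean of the 3 lines. In both tissues the 3 line libraries lie below NT for OsFKF1 and above it for OsPRR1, while most other genes have line and NT values close together.

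OsFKF1 (Os11g0547000, chromosome 11), an F-box blue-light receptor that in Arabidopsis targets repressors of flowering for degradation, fell in both tissues. In roots it was at 36.4 RPM in NT, against 13.4, 13.8 and 15.7 RPM in lines 13, 15 and 19. The leaf values were 84.2 RPM in NT, against 34.9, 36.96 and 38.8 RPM in the lines. The line libraries lay close together and NT stood above all of them in each tissue. The log2 difference was -1.29 ± 0.13 (SE) in roots (limma, adjusted p = 0.0034) and -1.17 ± 0.13 in leaves (adjusted p = 0.00534), and in RPM the NT level was 2.55-fold and 2.28-fold the mean of the lines. The call in roots was lost without line 15 (adjusted p = 0.0625). In leaves it held without each line in turn.

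OsPRR1 (Os02g0618200, chromosome 2), the rice counterpart of the Arabidopsis evening repressor TOC1, rose in both tissues. In roots it was at 45.2 RPM in NT, against 66.99, 71.5 and 76.1 RPM in lines 13, 15 and 19. In leaf libraries the gene stood at 66.01 RPM in NT, against 111, 108 and 110.3 RPM in the lines. Every line was above NT, and the 3 leaf libraries of the lines spanned a narrow range. The mean of the lines was 71.5 ± 4.54 RPM (SD, n = 3) in roots, 1.58-fold NT, and 109.6 ± 1.53 RPM in leaves, 1.66-fold NT. The log2 difference was 0.65 ± 0.11 in roots (limma, adjusted p = 0.0383) and 0.72 ± 0.11 in leaves (adjusted p = 0.0142). The root call was lost without any 1 of lines 13, 15 and 19 (adjusted p = 0.0898, 0.244 and 0.166) and after TMM rescaling (0.0522), and the leaf call without line 15 (0.0924) or line 19 (0.0760).

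Of the 2 loci that carry the LHY symbol, LHY-like_chr.4 passed the test in leaves and OsLHY passed in neither tissue. OsLHY (Os08g0157600, chromosome 8), the morning MYB factor of the loop, was at 7.93 RPM in NT roots, against 4.79, 5.67 and 5.03 RPM in roots of lines 13, 15 and 19. All 3 lines were below NT there, but the log2 difference of -0.54 ± 0.17 (95% interval -0.94 to -0.13) did not pass the adjustment (limma, adjusted p = 0.239). Leaf levels were 12.5 RPM in NT, against 11.8, 11.8 and 14.7 RPM in the lines, on both sides of NT, with a log2 difference of 0.02 (interval -0.38 to 0.43).

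LHY-like_chr.4 (Os04g0583900, chromosome 4), annotated in the table as similar to LHY, was at 1.34 RPM in NT leaves, against 3.203, 3.95 and 5.33 RPM in leaves of the lines. All lines were above NT, and line 19 was highest. The mean of the lines, 4.16 ± 1.081 RPM (SD, n = 3), was 3.11-fold NT, and the log2 difference was 1.12 ± 0.23 (limma, adjusted p = 0.0454). In roots it was at 0.964 RPM in NT, against 1.55, 1.72 and 1.58 RPM in the lines, and the log2 difference of 0.41 did not pass (adjusted p = 0.489). This is a low gene, with an estimated 16.3 reads in its lowest library. Its leaf call was lost without line 15 (0.160) or line 19 (0.128), with a pseudocount of 5 RPM (0.0643), with no filter (0.10003) and after quantile normalization (0.0577).

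None of the 4 daytime PRR genes passed the test in either tissue. OsPRR73 (Os03g0284100, chromosome 3) was at 95.2 RPM in NT roots, against 80.1, 83.3 and 78.2 RPM in roots of lines 13, 15 and 19. Leaves held 197 RPM in NT, against 179, 168 and 143 RPM in the lines. All lines were below NT in both tissues, with log2 differences of -0.24 in roots (limma, adjusted p = 0.504) and -0.28 in leaves (adjusted p = 0.306), and the 95% intervals, -0.56 to 0.08 and -0.60 to 0.05, included 0.

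OsPRR37 (Os07g0695100, chromosome 7), known as the heading-date gene Hd2 or DTH7 that delays flowering in long days, was at 15.3 RPM in NT roots, against 13.7, 12.7 and 13.9 RPM in the lines. All 3 lines were below NT. The leaf values were 94.6 RPM in NT, against 98.3, 93.99 and 85.4 RPM in the lines, which overlap NT. Its log2 differences, -0.18 (interval -0.46 to 0.10) in roots and -0.03 (interval -0.31 to 0.24) in leaves, did not pass.

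OsPRR95 (Os09g0532400, chromosome 9) was at 42.01 RPM in NT roots, against 37.9, 40.6 and 41.3 RPM in the lines. In leaf libraries the gene stood at 395 RPM in NT, against 337, 427 and 394 RPM in the lines, with line 13 lowest and line 15 highest. Its log2 differences were -0.07 (interval -0.41 to 0.26) in roots and -0.04 (interval -0.38 to 0.29) in leaves. Line 13 was the lowest library in both tissues.

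OsPRR59 (Os11g0157600, chromosome 11) was at 46.3 RPM in NT roots, against 45.8, 43.4 and 41.6 RPM in the lines, all slightly below NT. Leaf levels were 57.1 RPM in NT, against 66.9, 60.9 and 61.1 RPM in the lines, all above NT. Neither log2 difference, -0.08 (interval -0.34 to 0.17) in roots and 0.14 (interval -0.12 to 0.39) in leaves, passed the test. The symbol columns of the table list all 5 PRR genes, OsPRR1 included, as genes of the CCT domain, a motif also found in CONSTANS-like flowering regulators. Of these 5, only OsPRR1 was called in either comparison of lines with NT.

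OsGI (Os01g0182600, chromosome 1), the rice GIGANTEA gene, was at 486 RPM in NT roots, against 446, 444 and 437 RPM in roots of lines 13, 15 and 19. Leaves held 505 RPM in NT, against 568, 577 and 583 RPM in the lines. The lines were below NT in roots and above it in leaves, with log2 differences of -0.14 (interval -0.38 to 0.11) and 0.19 (interval -0.06 to 0.43). Neither passed the test (limma, adjusted p = 0.624 and 0.364), and nor did their difference of 0.33 (adjusted p = 0.353).

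OsELF3 (Os06g0142600, chromosome 6), the heading-date gene Hd17 and a member of the evening complex in Arabidopsis, was near the filter. In roots it was at 0.9497 RPM in NT, against 0.817, 2.004 and 2.07 RPM in the lines. The leaf values were 1.96 RPM in NT, against 2.14, 1.68 and 2.58 RPM in the lines. The lines lay on both sides of NT in each tissue. Its 95% intervals, -0.35 to 1.14 in roots and -0.68 to 0.82 in leaves, were the widest of the 10 genes, at an estimated 16.1 reads in its lowest library, so a 2-fold rise in roots lies inside the interval.

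**Figure D2:**
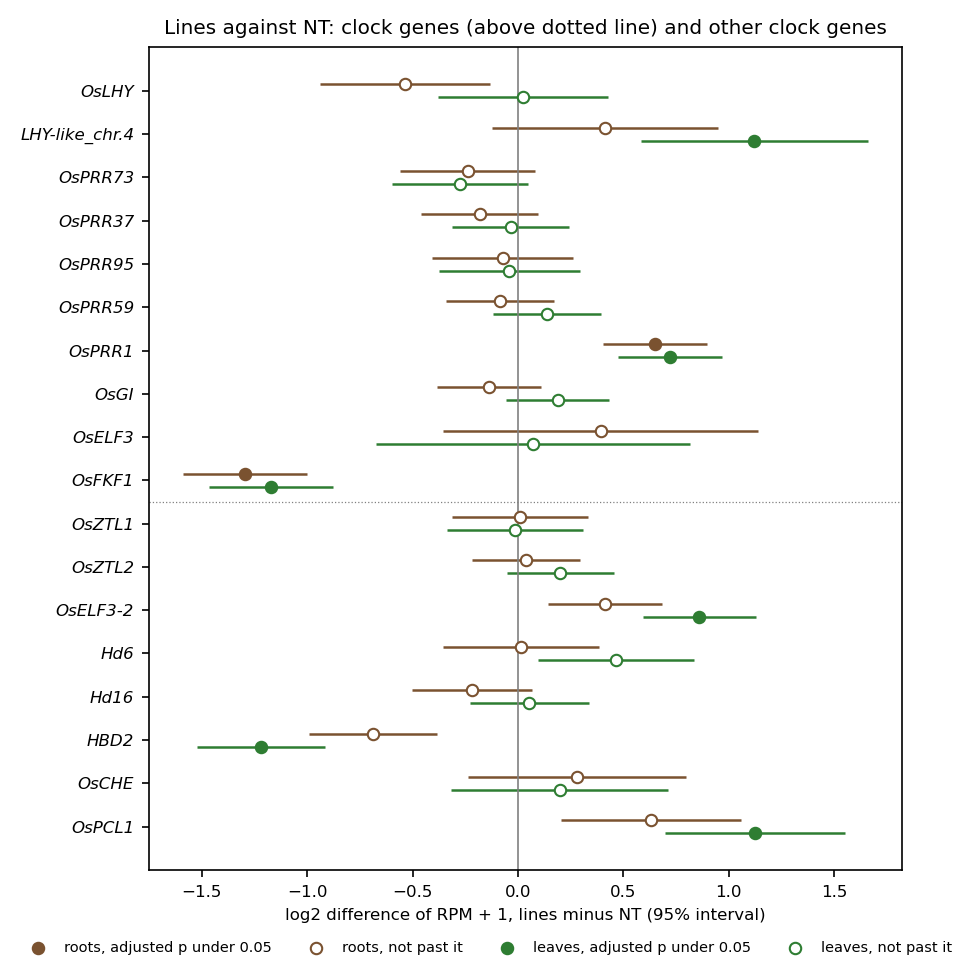
Log2 difference of RPM + 1 between lines and NT (x axis, bars 95% intervals from limma) in roots and leaves. The 10 clock genes are above the dotted line, and 8 genes of the list of further clock genes are below it. Filled points passed an adjusted p of 0.05: OsPRR1 and OsFKF1 in both tissues, and LHY-like_chr.4, OsELF3-2, HBD2 and OsPCL1 in leaves.

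Whether a change differed between the tissues was tested by the difference of the effects in leaves and roots. None of the 10 clock genes passed with limma, where 0.382% of all tested genes did. At an unadjusted p under 0.05 there were 0 of 10, against 15.2% of all tested genes. The differences ran from -0.32 for OsELF3 to 0.71 for LHY-like_chr.4, with adjusted p from 0.334 to 0.962. For OsPRR1 and OsFKF1 the leaf effect was close to the root effect, with differences of 0.07 (95% interval -0.28 to 0.42) and 0.12 (interval -0.29 to 0.54). For LHY-like_chr.4 the interval, -0.05 to 1.47, was wide, so its call in leaves and not in roots is not shown to be a difference between tissues. In OsLHY the interval was -0.01 to 1.13.

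Levels in roots and leaves could be compared with 4 libraries against 4, NT and the 3 lines pooled within each tissue. The spread within a tissue therefore includes any difference between lines and NT. All 10 clock genes had a lower mean in roots, while 14956 of 21991 tested genes had a higher mean log2 value in roots. Of the clock genes, 9 were called lower in roots by limma (9 of 10 at an unadjusted p under 0.05, against 83.5% of all tested genes). Of all tested genes 24.2% were called lower in roots and 58.5% higher, or 82.7% in all. Leaf exceeded root in every genotype for 9 of 10 genes, the exception being OsELF3 (3 of 4 genotypes). That count by genotype was not made over all tested genes. The 4 leaf and 4 root libraries did not overlap at all for 6 genes, against 78.3% of all tested genes. The direction held after TMM rescaling, although the comparison of tissues depends on scaling as a whole: the median of all tested genes was 0.59 higher in roots (log2) as deposited and 0.02 after TMM rescaling, when calls were split 8945 higher to 8596 lower in roots in place of 12856 to 5328. The 10 clock genes had a median log2 difference, root minus leaf, of -0.90.

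OsPRR95 and OsPRR37 differed most between tissues. OsPRR95 averaged 40.5 ± 1.81 RPM in roots (SD, n = 4) and 388 ± 37.5 RPM in leaves, 9.60-fold higher, and OsPRR37 averaged 13.9 ± 1.09 and 93.1 ± 5.44 RPM, 6.71-fold higher. The log2 differences between root and leaf were -3.23 and -2.66 (limma, adjusted p = 6.65e-10 and 1.80e-09), and no leaf library fell near a root library. OsLHY averaged 5.86 ± 1.43 RPM in roots and 12.7 ± 1.39 RPM in leaves, 2.17-fold, and OsPRR73 84.2 ± 7.62 and 172 ± 22.7 RPM, 2.04-fold.

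OsPRR59 averaged 44.3 ± 2.15 RPM in roots and 61.5 ± 4.02 RPM in leaves, and OsGI averaged 453 ± 22.4 and 558 ± 35.9 RPM, 1.23-fold higher in leaves. Their log2 differences, leaves minus roots, were 0.46 and 0.30 as deposited and 1.1003 and 0.95 after TMM rescaling. Every tissue fold given here is of RPM as deposited, and rescaling moved all 10 log2 differences further towards leaves. In OsGI the call was lost without line 15 (limma, adjusted p = 0.0552), and those of OsPRR1 and LHY-like_chr.4 without any 1 of lines 13, 15 and 19 (0.0937, 0.0668 and 0.0587 for OsPRR1, and 0.0775, 0.0768 and 0.0958 for LHY-like_chr.4). The root and leaf libraries of OsPRR1, OsFKF1 and LHY-like_chr.4 overlap: for OsFKF1, roots of NT at 36.4 RPM lay among leaves of the lines at 34.9 to 38.8 RPM. OsELF3 did not pass as deposited (adjusted p = 0.115) and passed after TMM rescaling (adjusted p = 0.00359).

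**Figure D3:**
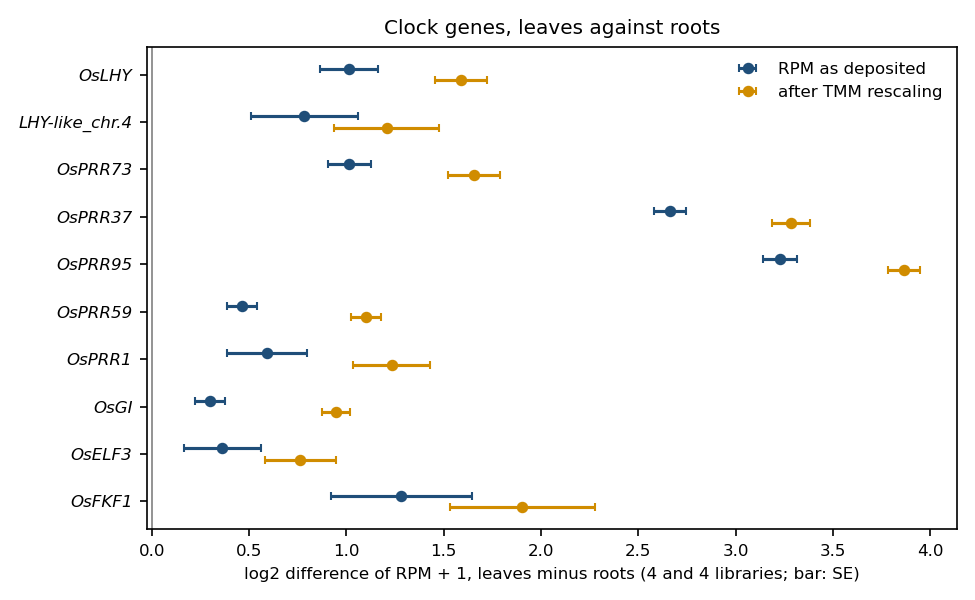
Log2 difference of RPM + 1, leaves minus roots, for the 10 clock genes (x axis, 4 leaf against 4 root libraries, bars SE), with RPM as deposited and after TMM rescaling. All 10 genes lie to the right of 0 under both scalings, and OsPRR95 and OsPRR37, at 9.60-fold and 6.71-fold between the tissue means in RPM, lie farthest to the right.

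The list of further clock genes held 8 genes, found for 9 of 25 symbols searched. With limma, 3 were called in leaves (2 higher, 1 lower) and 0 in roots, against 3.79% and 1.16% of all tested genes. At an unadjusted p under 0.05 there were 4 of 8 in leaves and 3 of 8 in roots, against 21% and 13.5% of all tested genes. OsPCL1 (Os01g0971800) shares its symbol with Arabidopsis PCL1, also known as LUX, but its annotated best Arabidopsis match is BOA. It was at 82.9 RPM in NT roots, against 107, 134 and 148 RPM in the lines. In leaf libraries the gene stood at 289.8 RPM in NT, against 591, 688.5 and 622 RPM in the lines, and the log2 difference was 1.12 ± 0.18 (adjusted p = 0.0208). All 3 lines were above NT in each tissue. The leaf call was lost without line 15 (0.108), without line 19 (0.0965), with no filter (0.0634) and with leaves fitted alone (0.195).

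OsELF3-2 (Os01g0566100), a second rice ELF3 gene, was at 15.4 RPM in NT leaves, against 29.4, 29.7 and 27.4 RPM in leaves of the lines, and at 18.1 RPM in NT roots, against 23.3, 24.1 and 25.9 RPM in the lines. All lines were above NT in both tissues, with a log2 difference of 0.86 ± 0.12 in leaves (limma, adjusted p = 0.0110), which was lost without line 15 (0.0805) or line 19 (0.0668) and with leaves fitted alone (0.192), and 0.41 in roots (adjusted p = 0.182). HBD2 (Os02g0622100), a casein kinase I gene, entered the list through its symbol CKI. Its description names low temperature tolerance, root development and hormone sensitivity, not the clock. It was at 32.5 RPM in NT leaves, against 12.9, 12.8 and 14.5 RPM in the lines. All lines were below NT and the log2 difference was -1.22 ± 0.13 (adjusted p = 0.00508), lost without line 19 (0.0540) and with leaves fitted alone (0.183). In roots HBD2 was at 37.5 RPM in NT, against 23.7, 21.2 and 24.0 RPM in the lines, with a log2 difference of -0.69 (adjusted p = 0.0661), which passed when the pseudocount was 5 RPM (0.0391). OsZTL2, an F-box gene of the same family as OsFKF1 and the second most abundant of the list, was at 44.3 RPM in NT leaves, against 51.2 ± 2.42 RPM in the lines and was not called (adjusted p = 0.350).

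Of 15 photoreceptor and PIF-like genes, 14 were tested and 0 were called in either tissue with limma, with 5 in roots and 4 in leaves at an unadjusted p under 0.05, against 13.5% and 21% of all tested genes. The 2 most abundant of them were OsbZIP28, a bZIP gene matched through its synonym OsbZIP1, at 84.5 RPM in NT roots, against 93.0 ± 1.83 RPM in the lines, and OsCOP1, an E3 ubiquitin ligase gene of light signalling, at 33.95 RPM in NT leaves, against 22.5 ± 2.81 RPM in the lines (limma, adjusted p = 0.0729). The description of OsbZIP28 names similarity to the transcription factor HBP-1b(C38), not light signalling.

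Of 27 photoperiod flowering genes, 18 were tested and 2 were called in leaves, both higher, with 0 in roots, against 3.79% of all tested genes in leaves (2.66% higher) and 1.16% in roots. At an unadjusted p under 0.05 there were 3 of 18 in leaves and 2 of 18 in roots, against 21% and 13.5%. DTH2 (Os02g0724000), a CONSTANS-like gene that promotes heading in long days, was at 14.2 RPM in NT leaves, against 42.0, 42.2 and 54.1 RPM in leaves of the lines. The log2 difference was 1.62 ± 0.22 (limma, adjusted p = 0.0118). OsBBX19 (Os06g0298200), a B-box gene matched through its synonym DTH2, was at 7.83 RPM in NT leaves, against 26.8, 34.4 and 38.2 RPM in the lines. Its log2 difference was 1.94 ± 0.23 (limma, adjusted p = 0.00728). For both, all 3 lines were above NT, and both calls were lost without line 15 (0.0634 and 0.0561) or line 19 (0.0759 and 0.0714) and with leaves fitted alone (0.200 and 0.204). The most abundant flowering genes, OsGF14c and OsMADS56, were at 386.5 ± 65.8 and 172 ± 20.9 RPM in leaves of the lines, against 383.6 and 186 RPM in NT, and were not called.

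**Figure D4:**
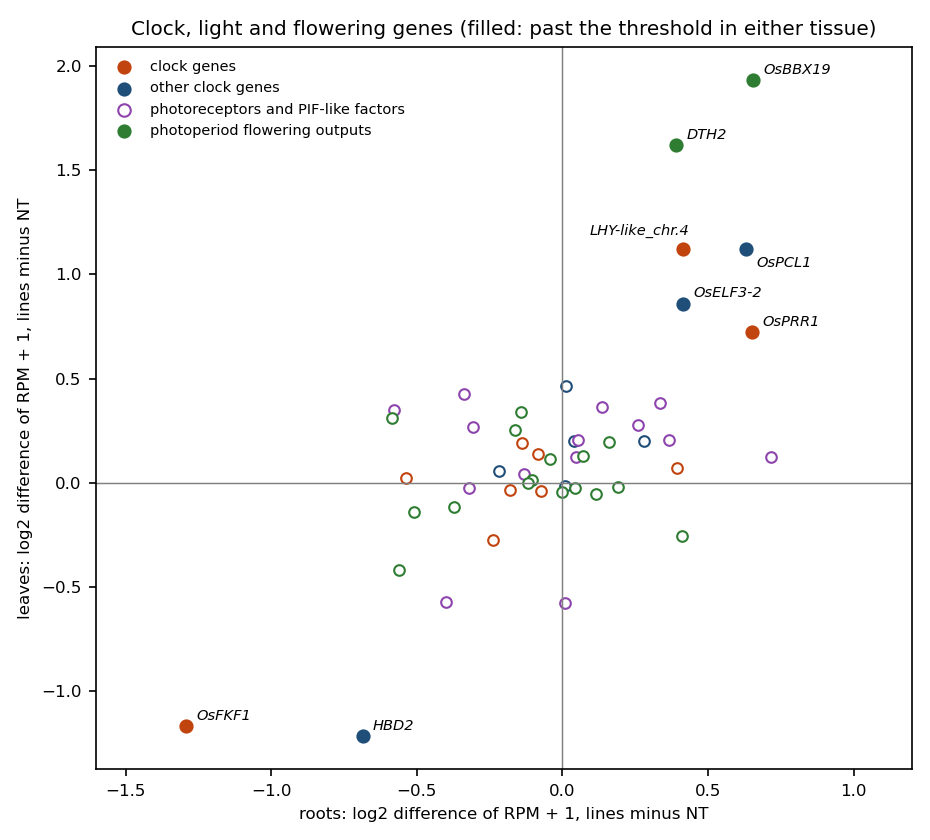
Log2 difference of RPM + 1 between lines and NT in roots (x axis) against leaves (y axis) for the clock genes and the further lists, with named genes labelled. OsFKF1 and HBD2 lie at the lower left, and OsPRR1, OsPCL1, OsELF3-2, DTH2 and OsBBX19 at the upper right.

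In leaves the 10 leaf markers summed to 97664 RPM in NT and to 75963 to 92083 RPM in the lines. All 3 lines were below NT for 6 of the 10, against 20.6% of all tested genes, and overlapped NT for the other 4. By limma 1 of 10 was called, against 1.13% of all tested genes called lower: RCA, the Rubisco activase gene, at 2198 RPM in NT and 1323 ± 149.6 RPM over the lines (adjusted p = 0.0341). In roots, leaf markers summed to 303 RPM in NT and to 56.5 to 103 RPM in the lines. PPDK, which overlapped between tissues, was at 113 RPM in NT roots and 77.3 RPM in line 15. It made up the whole sum in lines 13 (103 RPM) and 19 (56.5 RPM). CAB1R, a chlorophyll-binding protein gene, made up 190.2 RPM of the NT sum, was at 3.95 RPM in line 15 and was listed at 0 in lines 13 and 19. It was the 1 leaf marker called in roots, against 0.509% of all tested genes called lower there. Its log2 difference was -6.81 (limma, adjusted p = 0.00944). CAB1R was at 10377 to 13633 RPM in leaves, so the limit on a printed 0 applies to its root values. The size of its difference in roots may be overstated. The 7 markers listed at 0 in all roots could not be called there. The share of rRNA reads from chloroplasts stood at 0.125% for NT roots, with line 13 at 0.450%, line 15 at 1.43% and line 19 at 1.86%. The part of these differences in the clock results was not tested.

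The loci next to the called clock genes were examined with the 10 nearest tested genes on each side by locus number. Whether reads were counted by strand is not given in the sources used here, so reads of overlapping genes on opposite strands cannot be told apart. Around OsPRR1, 2 of 20 neighbours were called in roots and 5 in leaves, all higher, or 10% and 25% against 1.16% and 3.79% over all tested genes. OsGRX9 (Os02g0618100), a glutaredoxin gene and the locus immediately before OsPRR1, was at 39.4 RPM in NT roots, against 108 ± 14.1 RPM in the lines, and at 30.4 RPM in NT leaves, against 77.6 ± 1.03 RPM in the lines (limma, adjusted p = 0.00481 and 0.00586). Os02g0616800, a gene with a ribosome-inactivating domain, was at 0.119 RPM in NT roots, against 8.92 ± 1.17 RPM in the lines. OsLP2, a receptor-like kinase gene, was at 8.53 RPM in NT leaves, against 332 ± 63.9 RPM in the lines, OsCER1, a wax synthesis gene, at 0.317 RPM and 16.97 ± 4.18 RPM, and Os02g0620100, which encodes a Mis12 protein, at 3.53 RPM and 9.24 ± 1.76 RPM.

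HBD2 lies 15 tested genes beyond OsPRR1 on the same chromosome and changed in the opposite direction, and HWH1, next to HBD2, was at 59.2 RPM in NT leaves, against 13.4 ± 3.004 RPM in the lines (limma, adjusted p = 0.00612). Around OsFKF1, 1 of 20 neighbours was called in each tissue, or 5% against 1.16% in roots and 3.79% in leaves over all tested genes. This neighbour, Os11g0547800, was at 11.2 RPM in NT leaves, against 0.431 ± 0.27 RPM in the lines (limma, adjusted p = 0.000546). In NT roots it was at 1.62 RPM with all 3 lines listed at 0, where the limit on a printed 0 applies. Around LHY-like_chr.4, 2 of 20 were called in leaves, or 10% against 3.79%, the same number as around OsPRR73, which was not itself called. They were OsS3H (0.571 RPM in NT, against 3.06 ± 0.71 RPM in the lines) and OsCDPK13 (50.9 and 103 ± 7.38 RPM), both higher. For OsPCL1 the number was 0 in both tissues. Around the 7 clock genes called in neither tissue, 0 neighbours were called in roots and 0 to 2 in leaves.

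**Figure D5:**
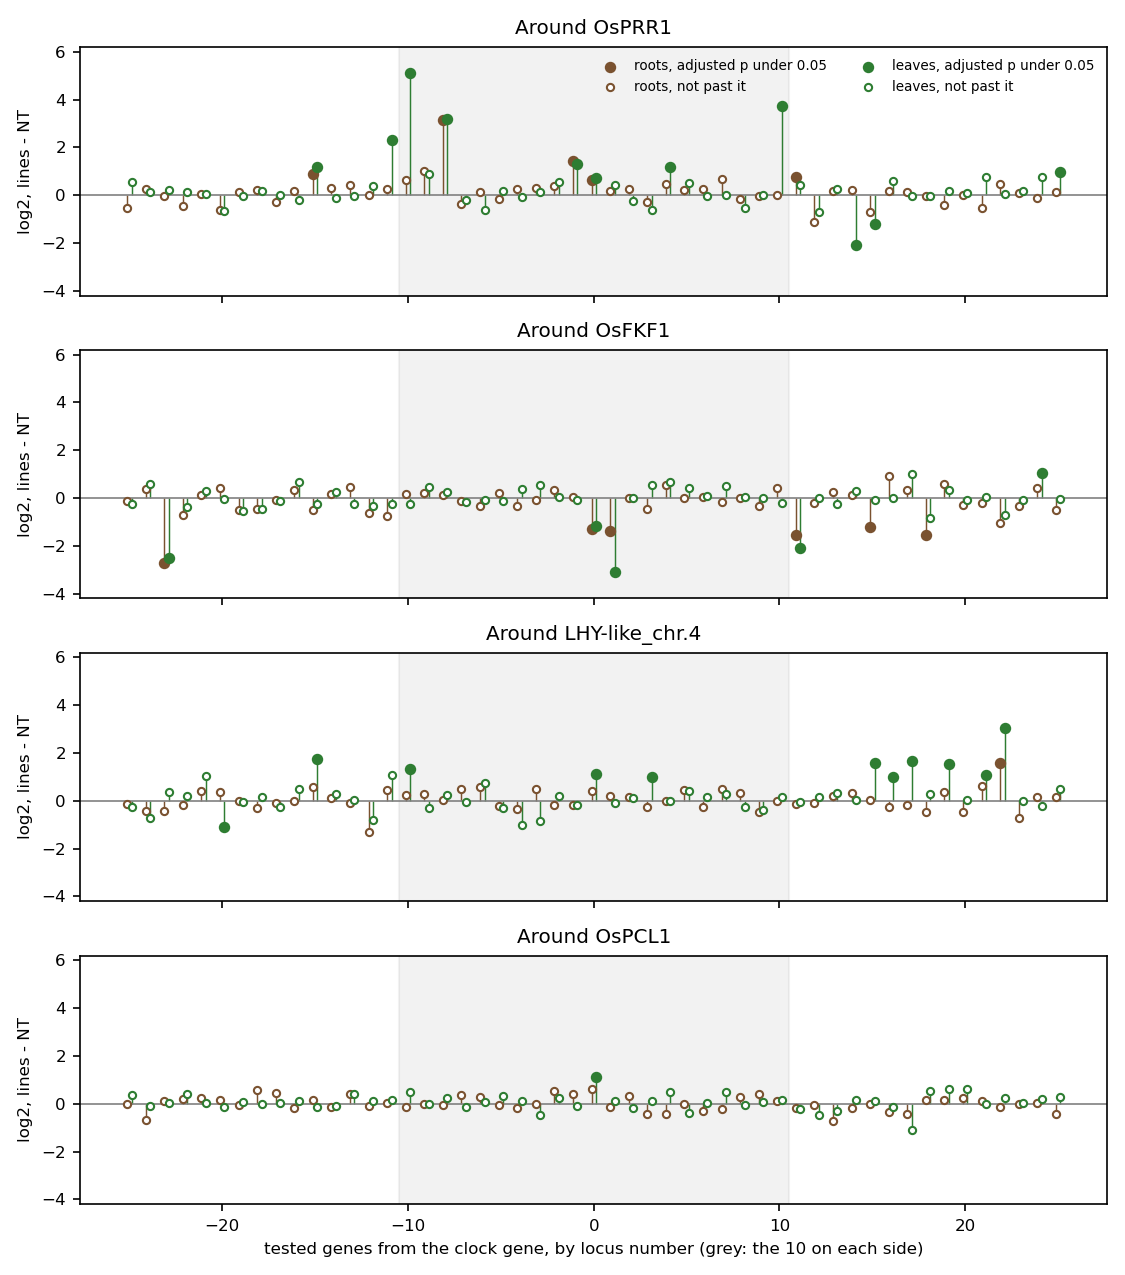
Log2 difference of RPM + 1 between lines and NT for tested genes in order of locus number around OsPRR1, OsFKF1, LHY-like_chr.4 and OsPCL1, with the clock gene at 0 and the 10 tested genes on each side in grey. Filled points passed an adjusted p of 0.05 in roots (brown) or leaves (green): within the grey band they are all higher around OsPRR1, while around OsFKF1 the neighbour that passed is lower and around OsPCL1 no neighbour did.

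The genes whose pattern over the 8 libraries was most like that of OsLHY, by root mean square distance of centred log2(RPM + 1), were Os12g0263600, annotated as similar to an isoflavone reductase (0.10), Os08g0430700, annotated as similar to a UVB-resistance protein (0.11), and Os01g0507700 (0.11). For OsPRR1 they were OsHAP2E (0.13), OsTLP3 (0.13) and Os05g0297800 (0.14). These distances describe 8 libraries that fall into 2 tissues.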

How the data were processed

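The authors deposited 1 table of normalized read signal, reads per 1000000 (RPM) per gene per the series design text, for all 8 libraries, and each of 3 classes (genes, rRNAs and ERCC controls) sums to 1000000. RSEM 1.2.21, Bowtie 1.2.3 and Trimmomatic 0.39 are named, with IRGSP-1.0, in the submitters' processing notes, without roles or settings. Gene names came from the table's own symbol columns. Depth was estimated from the value of 1 read, 0.0280 to 0.0590 RPM. Values were only partly whole reads, so no count test was run.

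Genes averaging at least 1 RPM (21991) were tested on log2(RPM + 1) with limma 3.58.1 in R 4.3.3 (group means, eBayes with trend, two-sided, Benjamini-Hochberg over all genes, threshold 0.05). With 1 NT library per tissue, its spread was taken to equal that of the lines, and n = 3 means 3 lines with 1 sample each. Root against leaf was fitted on tissue means, with NT and lines pooled. Fold changes on the log2(RPM + 1) scale understate low genes. Scripts used Python 3.11.15, numpy 2.4.6 and pandas 2.3.3. The tests were tried on simulated data that gave NT the same spread as the lines, so the trial cannot show whether that assumption holds. Members, lists and named-gene rules were chosen with earlier results of these data known. Named genes were all members, called genes and the 2 most abundant of each further list, the 3 nearest patterns of OsLHY and OsPRR1, and called neighbours of called members. HWH1, next to HBD2, is outside that rule and was chosen after its values were seen. Lines pair root and leaf samples: deviations of the same line correlated at 0.139, -0.0525 and 0.129 over the 8365 genes averaging at least 20 RPM.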

Additional observations from a re-analysis of the deposited data

Results flagged for a closer look

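The difference of the effects in leaves and roots was past the threshold for OsbZIP83, the overexpressed gene: the log2 difference between lines and NT was 2.70 higher in leaves than in roots (limma, adjusted p = 0.0164), with all 3 lines above NT in each tissue. It was lost without line 15 (adjusted p = 0.120) and without line 19 (0.241). No clock gene passed this test.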

How the results depend on the processing

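Clock genes called in roots (2) became 1 after TMM rescaling, 0 with roots fitted alone and 0 to 1 without 1 of lines 13, 15 and 19; those called in leaves (3) became 0 with leaves fitted alone and 1 to 3 without a line. Fits on 1 tissue alone and without a line have fewer samples, so fewer residual degrees of freedom. With all samples, LHY-like_chr.4 also lost its leaf call with a pseudocount of 5 RPM, with no filter and after quantile normalization. Over all genes, calls in roots (256) became 410 with a pseudocount of 5 RPM, 684 with no filter, 121 with a filter at 5 RPM, 57 with roots alone and 64 to 253 without a line. Calls in leaves (834) became 16 with leaves alone and 90 to 803 without a line. Calls of the difference (84) became 161 with a pseudocount of 5 RPM, 245 with no filter, 31 with a filter at 5 RPM, 55 after quantile normalization (29 higher and 26 lower against 57 and 27) and 0 to 25 without a line; the cause was not tested. With the line as a replicate block, clock calls were 2 in roots, 3 in leaves, 0 for the difference and 9 for root against leaf, so pairing changed no count of clock calls. No direction of a called clock gene was reversed. At the filter of 5 RPM OsELF3 and LHY-like_chr.4 were not tested. Depth limits OsELF3 and LHY-like_chr.4, and the single NT library per tissue limits every comparison with lines.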
